A study of Mus musculus with 20 samples.

Results

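The keratins *Krt5*, *Krt14*, *Krt6a*, *Krt6b*, *Krt16* and *Krt17* were followed in normal skin and in p53-deficient skin tumors of the mouse. They were chosen by name, as the 2 basal and 4 stress keratins of the epidermis, with earlier results of these data known. They are 6 of the 18193 genes measured, read by 11 of 45037 probesets. The arrays (Affymetrix MOE430 2.0) measured total RNA of 20 FVB samples: 5 of wild type normal skin, 7 of carcinomas of Trp53ΔEC mice and 8 of carcinomas of RbΔEC; Trp53ΔEC mice. Trp53ΔEC mice are written k14Cre;p53loxP/loxP in the series text, and pRbloxP/loxP is added for the other genotype. Both carry a Cre recombinase driven by the keratin 14 promoter. The genes are thus deleted in epithelial cells that use that promoter and in their descendants, not in the rest of the tissue. The skin came from mice of 2 months. The labels give no age for the tumors and do not say whether each came from a different mouse, so a p-value here reads only the variation among the samples. By histology 6 carcinomas were poorly differentiated (4 RbΔEC; Trp53ΔEC and 2 Trp53ΔEC), 3 were undifferentiated, 2 were spindle cell carcinomas and 4 were mixed, with differentiated and undifferentiated areas. The 5 undifferentiated and spindle cell carcinomas (3 RbΔEC; Trp53ΔEC and 2 Trp53ΔEC) were taken as 1 class, undifferentiated/spindle.

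Keratins are the intermediate filament proteins of epithelial cells, and a filament forms only when a type I keratin pairs with a type II keratin. In the epidermis the type II keratin Krt5 pairs with the type I keratin Krt14 in the basal layer, where the dividing cells lie, and both give way to other keratins as cells move up. The type II keratins Krt6a and Krt6b and the type I keratins Krt16 and Krt17 are scarce in resting interfollicular epidermis, are made in the outer root sheath and companion layer of hair follicles, and are switched on in keratinocytes at wound edges and in hyperproliferative skin, for which they are called stress keratins. *Krt6b*, *Krt6a* and *Krt5* lie in the type II cluster on chromosome 15, with the annotated gene Gm49428 between the last pair. *Krt14*, *Krt16* and *Krt17* lie in the type I cluster on chromosome 11, with the pseudogenes Gm11597 and Gm11598 between *Krt14* and *Krt17*.

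The promoter of *Krt5* is shown because the gene's profile over the arrays lay close to that of *Trp63*, the transcription factor of stratified epithelia, whose protein binds DNA motifs of the p53 family. The window runs from 250 bases before to 50 bases after the transcription start in RefSeq, at chr15:101712856-101713155 on the minus strand of GRCm38.p6, and is written 5′ to 3′. Capitals mark a match to a p53 family half-site, which begins at position −95 from the start, and the ATAAAA at −29.
Krt5: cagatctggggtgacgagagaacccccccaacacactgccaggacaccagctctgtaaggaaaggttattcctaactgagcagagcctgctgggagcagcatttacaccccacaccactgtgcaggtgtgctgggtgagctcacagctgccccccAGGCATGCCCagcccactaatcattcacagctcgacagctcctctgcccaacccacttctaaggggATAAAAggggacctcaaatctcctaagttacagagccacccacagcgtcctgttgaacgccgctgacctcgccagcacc
Both strands were searched. The half-site was searched only as RRRCATGYYY, where R is A or G and Y is C or T. Other forms of the half-site were not counted. This form occurs in 1.93% and ATAAAA in 18.47% of the 32851 windows of this length. No TATAAA (13.62% of windows), TGANTCA (7.81%, the AP-1 motif), GGGCGG (35.66%, the Sp1 motif) or GCCNNNGGC (16.59%, the AP-2 motif) was found in the *Krt5* window. The motifs were picked with this sequence in view, and a match describes letters, not a bound site.

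The values are on the log2 scale of RMA, the method that summarizes an array's probes into 1 value per probeset (from 2.34 to 14.72 in all, array medians 5.59 to 5.63 for skin and 5.65 to 5.75 for tumors). The table has no detection calls, so a value of about 4 to 6 may be background, and a difference from it may understate the change. Each gene is given by its brightest probeset on average, and levels of different genes are not compared. A gene was called where its adjusted p over all 18193 genes was under 0.05 in limma. *Rb1*, one of the targeted genes, ranged from 8.95 to 9.26 in skin, from 7.85 to 8.84 in Trp53ΔEC tumors and from 6.55 to 8.14 in RbΔEC; Trp53ΔEC tumors, and the ranges of the tumor genotypes overlap. *Trp53* was not analysed here. Of 8 keratinocyte markers, all were measured, and their mean ranged from 11.17 to 11.52 in skin, from 11.31 to 12.07 in poorly differentiated, from 6.19 to 10.95 in mixed and from 5.73 to 7.94 in undifferentiated/spindle carcinomas. In pieces of tissue such as these, fewer keratinocytes and less keratin RNA per keratinocyte cannot be told apart.

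**Figure D1:**
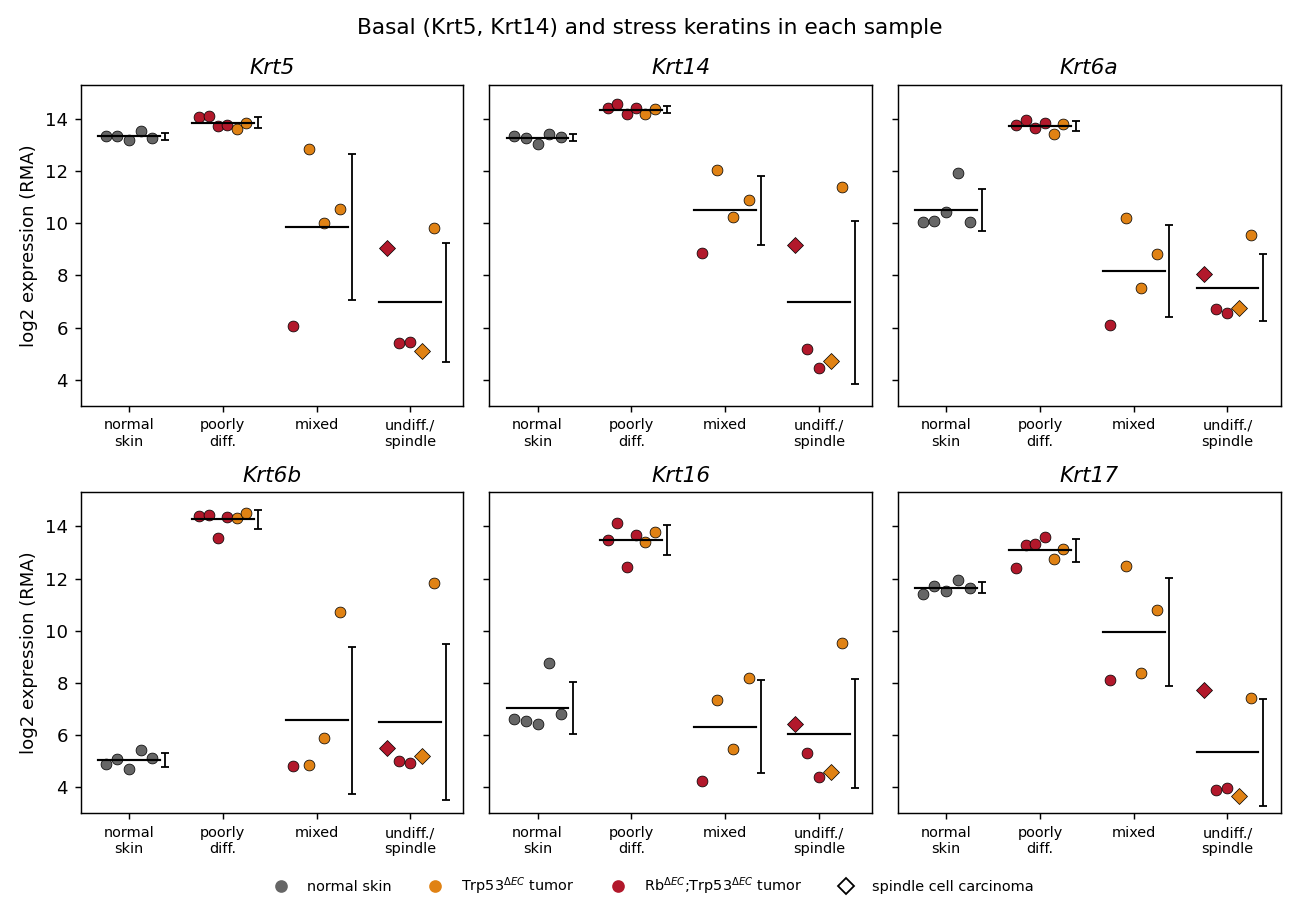
log2 expression (y axis, RMA) of each keratin in every sample, by class (x axis). Points are samples, coloured by genotype, with diamonds for spindle cell carcinomas, and horizontal lines with bars are means ± SD (n = 5 skin, 6 poorly differentiated, 4 mixed, 5 undifferentiated/spindle). All 6 poorly differentiated carcinomas lie above all 5 skin samples in every panel, and all 5 undifferentiated/spindle carcinomas lie below all 6 poorly differentiated ones.

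The basal pair was high in skin and higher in poorly differentiated carcinomas, on a scale whose highest value was 14.72. Whether the top of the scale limits these differences was not tested. *Krt5*, the type II basal keratin, read 13.33, 13.34, 13.20, 13.55 and 13.25 in skin samples 1 to 5. In the 6 poorly differentiated carcinomas it had a lowest value of 13.60, a median of 13.80 and a highest value of 14.10. The groups did not overlap, although skin sample 4 came close to the lowest tumor. The log2 difference was 0.52 (standard error 0.12, adjusted p = 0.0036, limma). *Krt14*, its type I partner, read 13.34, 13.28, 13.05, 13.41 and 13.31 in skin, and in poorly differentiated carcinomas its lowest, median and highest values were 14.18, 14.40 and 14.56. Here too every tumor lay above every skin sample, by a log2 difference of 1.08 (standard error 0.10, adjusted p = 8.74e-06, limma). The size of the *Krt14* difference depended on the probeset. Means in skin and in these tumors were 12.76 and 14.14 on 1460347_at, and 6.79 and 9.28 on 1455573_at. Within a sample, the shift of *Krt14* from its skin mean minus that of *Krt5* lay between 0.40 and 0.70 in the 6 tumors and between −0.10 and 0.12 in skin, a description without a test.

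*Krt6b*, a type II keratin of wounded and hyperproliferative epidermis, showed the largest difference of all 18193 genes between poorly differentiated carcinomas and skin. It read 4.88, 5.09, 4.72, 5.42 and 5.11 in skin, within the range where background lies, and its lowest, median and highest values in poorly differentiated carcinomas were 13.57, 14.37 and 14.50. No tumor came near the skin range. The log2 difference was 9.22 (standard error 0.18, adjusted p = 8.36e-11, limma). *Krt16*, the type I keratin that pairs with Krt6 proteins, read 6.62, 6.54, 6.42, 8.78 and 6.81 in skin, and had a lowest value of 12.46, a median of 13.59 and a highest value of 14.15 in the tumors. Skin sample 4 stood above the other 4 skin samples and still lay below every poorly differentiated carcinoma. The log2 difference was 6.46 (standard error 0.42, adjusted p = 4.47e-07, limma), the 48th largest of all genes.

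*Krt6a* and *Krt17*, which hair follicles of resting skin make, were already well above the low end of the scale in skin. *Krt6a* read 10.03, 10.08, 10.43, 11.93 and 10.04 in skin, with sample 4 again the highest. Its lowest, median and highest values in poorly differentiated carcinomas were 13.42, 13.78 and 13.97, with no overlap, and the log2 difference was 3.23 (standard error 0.31, adjusted p = 8.19e-06, limma). *Krt17*, a type I keratin that pairs with Krt6 proteins in the follicle and in wounds, read 11.41, 11.72, 11.54, 11.95 and 11.63 in skin and 12.41, 13.21 and 13.58 at its lowest, median and highest in these tumors. It too separated the groups without overlap, by 1.43 (standard error 0.20, adjusted p = 0.000134, limma).

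All 6 keratins were thus higher in poorly differentiated carcinomas than in skin, where 21.2% of all genes were called higher and 22% lower, and all 6 separated the groups without overlap, as 14.3% of all genes did in this direction. The median difference was 2.33 over the 6 keratins and 0.00 over all genes. In 1 fit over all 20 samples, in which the spread is shared with the tumor classes that varied widely, 3 were called: *Krt5*, *Krt14* and *Krt17* then had adjusted p-values of 0.707, 0.398 and 0.165 (limma). The share of all genes that this fit called is not given here. Other cell types also differed between the groups: the mean of 6 skeletal muscle markers was between 13.60 and 14.13 in skin and between 5.11 and 9.10 in tumors, that of 5 fibroblast markers was between 12.93 and 13.37 in skin and between 8.74 and 12.59 in tumors, and that of 6 markers of hair follicle sheath and shaft was between 5.02 and 5.83 in skin and between 5.73 and 8.49 in tumors. Their part in the keratin differences was not tested, nor was that of age. The mean of the keratinocyte markers was 0.48 higher in these tumors than in skin.

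**Figure D2:**
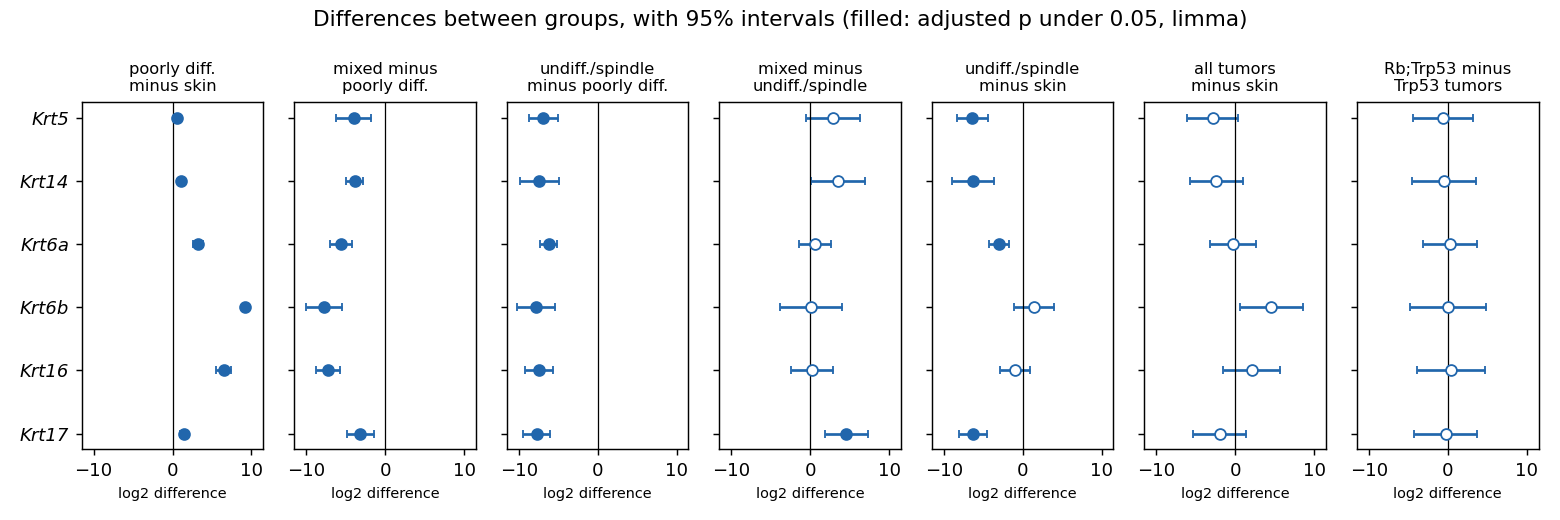
log2 differences (x axis) of the 6 keratins (rows) in 7 comparisons (panels), with 95% intervals. Filled points had an adjusted p under 0.05 in limma over all 18193 genes. All 6 points are filled to the right of 0 for poorly differentiated carcinomas minus skin and to the left of 0 for undifferentiated/spindle minus poorly differentiated carcinomas.

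In undifferentiated/spindle carcinomas all 6 keratins were lower than in poorly differentiated ones, where 9.9% of all genes were called lower, and all 6 did so without overlap, as 6.89% of all genes did in this direction. The median difference was −7.41 over the 6 keratins and 0.01 over all genes. *Krt17* read 3.68 in Trp53ΔEC tumor 1, 7.41 in Trp53ΔEC tumor 2 and 7.75, 3.91 and 3.98 in RbΔEC; Trp53ΔEC tumors 1, 3 and 5. Trp53ΔEC tumor 1 and RbΔEC; Trp53ΔEC tumors 3 and 5 lay at the low end of the scale, where background lies, and the other 2 tumors between them and skin. *Krt17* fell by 7.73 (standard error 0.76, adjusted p = 2.95e-05, limma), the 5th largest difference of all genes. In the same order of tumors, *Krt5* read 5.10, 9.82, 9.04, 5.41 and 5.45, and fell by 6.89 (standard error 0.82, adjusted p = 0.000126, limma). *Krt14* read 4.71, 11.38, 9.16, 5.18 and 4.43 and fell by 7.38 (standard error 1.13, adjusted p = 0.000703, limma). For these 3 genes, on the probesets used, the same pair of tumors, Trp53ΔEC tumor 2 and RbΔEC; Trp53ΔEC tumor 1, stood above the other 3.

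*Krt6b* read 5.22, 11.82, 5.51, 5.01 and 4.92 in the 5 tumors in that order. All but Trp53ΔEC tumor 2 lay near the skin values, and that tumor lay between skin and the poorly differentiated carcinomas. *Krt6b* fell by 7.77 (standard error 1.09, adjusted p = 0.000386, limma), the 4th largest difference of all genes, and by 9.10 without Trp53ΔEC tumor 2. *Krt16* read 4.59, 9.52, 6.42, 5.32 and 4.41 and fell by 7.44 (standard error 0.79, adjusted p = 5.26e-05, limma). *Krt6a* read 6.76, 9.55, 8.05, 6.72 and 6.56 and fell by 6.21 (standard error 0.47, adjusted p = 4.65e-06, limma). Trp53ΔEC tumor 2 was the highest of the class for each of these 3 stress keratins.

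The undifferentiated and the spindle cell carcinomas overlapped. For *Krt14* the 3 undifferentiated carcinomas read 11.38, 5.18 and 4.43 and the 2 spindle cell carcinomas 4.71 and 9.16, so that each histology held a high and a low tumor. The spread within the class was wide on the probesets used. The SD of *Krt14* over the 5 tumors was 3.12, larger than that of 99.98% of all genes, and those of *Krt5* and *Krt6b* were 2.27 and 2.99, where the median gene had 0.24. In poorly differentiated carcinomas the SD of *Krt14* was 0.15, smaller than the median of 0.28 over all genes, and that of *Krt5* was 0.20. For *Krt14* this contrast depended on the probeset. In undifferentiated/spindle and poorly differentiated carcinomas its SDs were 2.53 and 0.23 on 1460347_at. On 1455573_at, where the first class lay low, from 4.47 to 5.20, they were 0.265 and 0.495. With the keratins the mean of the 8 keratinocyte markers was lower by 5.17, with ranges that did not overlap, and it was highest in Trp53ΔEC tumor 2 (7.94) and RbΔEC; Trp53ΔEC tumor 1 (7.52) and at most 6.04 in the other 3. The means of 5 fibroblast and 4 macrophage markers were higher by 1.77 and 2.18. RbΔEC; Trp53ΔEC tumor 1 also stood apart in the mean of 6 markers of hair follicle sheath and shaft. That mean was 9.09 in it and between 4.59 and 4.83 in the rest of the class. The log2 difference between the 3′ and the 5′ probesets of the *Actb* control, which reads RNA degradation, lay between 0.24 and 0.38 in this class and between 0.42 and 0.82 in poorly differentiated carcinomas. All 6 keratins were still called lower with that difference as a covariate. Its ranges do not overlap between the classes, so this fit cannot separate it from the class. The part of the marker shifts in the result was not tested.

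**Figure D3:**
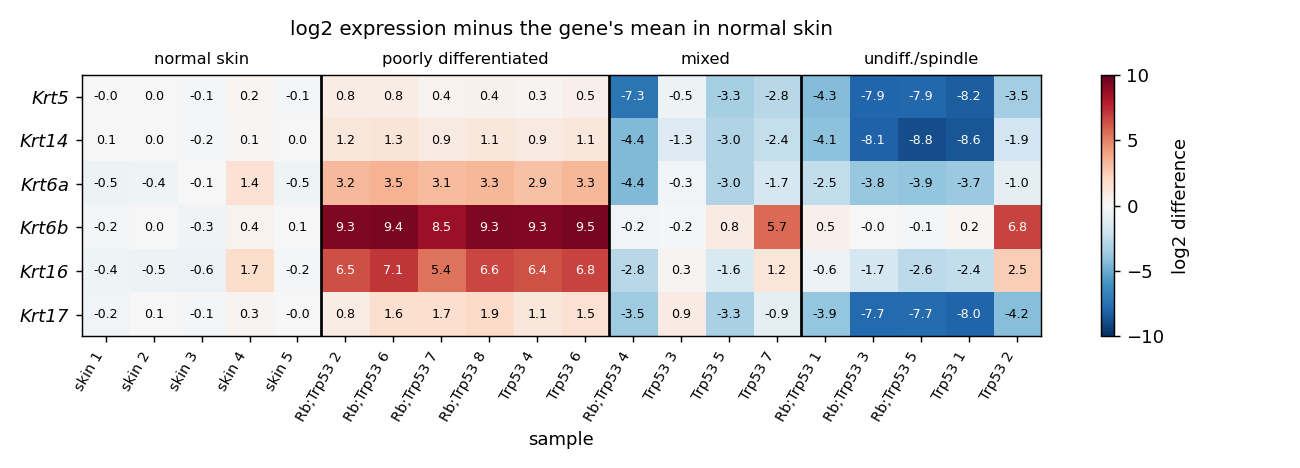
Each keratin's log2 expression in a sample (columns, ordered by class) minus its mean in the 5 skin samples, printed in each cell and coloured from −10 (blue) to 10 (red). In undifferentiated Trp53ΔEC tumor 2 *Krt6b* is 6.8 above skin while *Krt17* is 4.2 below it.

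Against normal skin, undifferentiated/spindle carcinomas were lower in 4 of the 6 keratins, where 23.5% of all genes were called lower and 49.2% in either direction, and these 4 did not overlap with skin (18.2% of all genes). The differences were −6.37 for *Krt5* (standard error 0.87, adjusted p = 0.000106), −6.30 for *Krt14* (1.19, 0.00109), −6.30 for *Krt17* (0.79, 5.32e-05) and −2.98 for *Krt6a* (0.58, 0.00136), all from limma. *Krt6b* and *Krt16* did not pass the test, with differences of 1.46 (95% interval −1.07 to 3.98, adjusted p = 0.323) and −0.98 (−2.93 to 0.97, 0.389). Without Trp53ΔEC tumor 2 the difference of *Krt6b* was 0.12 (adjusted p = 0.582) and *Krt16* was called lower, by a difference of −1.85 (adjusted p = 0.0167, limma). In that tumor, relative to the skin mean, *Krt6b* was at 6.78 and *Krt16* at 2.48, whereas *Krt5* was at −3.51, *Krt14* at −1.90, *Krt6a* at −0.95 and *Krt17* at −4.24. Thus within a single tumor 2 stress keratins stood above skin and the basal pair and *Krt17* below it. These comparisons share the skin or the poorly differentiated samples with those above.

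The 4 mixed carcinomas differed widely from each other. *Krt5* read 12.83, 10.01 and 10.53 in Trp53ΔEC tumors 3, 5 and 7 and 6.05 in RbΔEC; Trp53ΔEC tumor 4. *Krt14* read 12.02, 10.25, 10.89 and 8.85 in that order. In Trp53ΔEC tumor 3 *Krt5* was at −0.51 and *Krt14* at −1.25 from their skin means. In RbΔEC; Trp53ΔEC tumor 4 *Krt5* lay just above the low undifferentiated/spindle carcinomas, which read 5.10, 5.41 and 5.45. *Krt17* read 12.50, 8.40, 10.79 and 8.11. *Krt6a* read 10.22, 7.52, 8.83 and 6.11, *Krt6b* 4.85, 5.88, 10.72 and 4.80, and *Krt16* 7.34, 5.48, 8.21 and 4.25. Tumor 7 was thus the single mixed carcinoma with *Krt6b* far above skin, at 5.68 above its mean, although *Krt5*, *Krt14* and *Krt6a* were at −2.80, −2.39 and −1.68 from theirs.

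All 6 keratins were lower in mixed than in poorly differentiated carcinomas, where 6.95% of all genes were called lower. All except *Krt17* did so without overlap (6.77% of all genes). The differences were −7.70 for *Krt6b* (standard error 1.01, adjusted p = 0.00134), −7.18 for *Krt16* (0.69, 0.000264), −5.57 for *Krt6a* (0.63, 0.000621), −3.996 for *Krt5* (1.002, 0.0262), −3.85 for *Krt14* (0.48, 0.000998) and −3.13 for *Krt17* (0.77, 0.0238), all from limma. The differences of *Krt5* and *Krt17* were not stable to single samples. *Krt5* lost the call without Trp53ΔEC tumor 7 (adjusted p = 0.0526) or RbΔEC; Trp53ΔEC tumor 6 (0.0512), and *Krt17* without RbΔEC; Trp53ΔEC tumor 4 (0.0603, limma). The methods' t-test called none of the 6, where unequal variances and Benjamini-Hochberg adjustment over all genes were choices made here, since the methods name only the test and an FDR correction. The keratinocyte marker mean was 2.43 lower in mixed carcinomas. It was 10.95, 10.94 and 9.45 in Trp53ΔEC tumors 3, 5 and 7 and 6.19 in RbΔEC; Trp53ΔEC tumor 4. Trp53ΔEC tumors 3 and 5 were thus alike in this mean, although *Krt5* read 12.83 and 10.01 in them.

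*Krt17* was the only keratin of the 6 that differed between mixed and undifferentiated/spindle carcinomas, where 4.44% of all genes were called higher and 11% in either direction. Every mixed carcinoma lay above every undifferentiated/spindle carcinoma, the lowest mixed one at 8.11 and the highest of the other class at 7.75, a separation that 5.88% of all genes showed in this direction. The difference was 4.60 (standard error 1.22, adjusted p = 0.0436, limma). It was 3.53 for *Krt14* (95% interval 0.16 to 6.90, adjusted p = 0.172) and 2.89 for *Krt5* (−0.49 to 6.27, 0.261), and 0.64, 0.07 and 0.27 for *Krt6a*, *Krt6b* and *Krt16* (adjusted p = 0.713, 0.987 and 0.92). Leaving out single tumors moved the adjusted p of *Krt17* between 0.0391 and 0.107, and the call was lost without Trp53ΔEC tumor 1, 3 or 7 or without RbΔEC; Trp53ΔEC tumor 3 or 5. Without Trp53ΔEC tumor 2, *Krt14* was called as well (4.63, adjusted p = 0.0483, limma).

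Over all 15 tumors against the 5 skin samples none of the 6 keratins was called by limma, where 35.7% of all genes were called in either direction, and 1 had an unadjusted p under 0.05. *Krt6b* had the largest difference, 4.58 (95% interval 0.56 to 8.60, adjusted p = 0.0702). The other differences were −2.84 for *Krt5* (adjusted p = 0.162), −2.41 for *Krt14* (0.265), −1.98 for *Krt17* (0.367), 2.07 for *Krt16* (0.385) and −0.32 for *Krt6a* (0.882). As an example of the spread, *Krt14* ran from 4.43 through a median of 11.38 to 14.56 in tumors, and from 13.05 to 13.41 in skin. The methods' t-test called 2, *Krt6b* higher and *Krt5* lower, and 1 fit over all 20 samples with the classes as groups called 5, of which 2 were higher and 3 lower. The shares of all genes that these alternatives called are not given here.

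The tumor genotypes were compared to ask whether the additional loss of *Rb1* goes with a keratin difference. None of the 6 keratins was called between RbΔEC; Trp53ΔEC and Trp53ΔEC tumors, where limma called 0.033% of all genes, and none had an unadjusted p under 0.05. The differences lay between −0.62 for *Krt5* (95% interval −4.43 to 3.20, adjusted p = 0.994) and 0.37 for *Krt16* (−3.92 to 4.66, 0.997). Each genotype holds all classes, and these wide intervals do not show that the genotypes are alike. Within poorly differentiated carcinomas, with 4 against 2 tumors, the intervals were narrower. The differences ran there from −0.23 for *Krt6b* (−0.92 to 0.46, adjusted p = 0.879) to 0.20 for *Krt5* (−0.25 to 0.65, 0.84), and limma called 0% of all genes. With the class as a covariate they ran from −1.86 for *Krt6b* (−4.16 to 0.43, adjusted p = 0.715) to −0.60 for *Krt17* (−2.39 to 1.19, 0.897), none was called, and 0.044% of all genes were.

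The difference between undifferentiated/spindle and poorly differentiated carcinomas was also compared between the genotypes. *Krt6b* differed by −5.90 between the classes in Trp53ΔEC tumors (2 against 2) and by −9.04 in RbΔEC; Trp53ΔEC tumors (3 against 4), a difference of −3.14 between genotypes (95% interval −7.57 to 1.29, adjusted p = 0.766, limma). For the other 5 keratins the difference between genotypes lay between −1.90 and −0.53, with adjusted p-values from 0.806 to 0.961, and 0% of all genes were called. Without Trp53ΔEC tumor 1 the Trp53ΔEC class is a single tumor, assumed to vary like the other groups, and *Krt6b* was called (−6.45, adjusted p = 0.00251, limma).

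The genes with several probesets gave the same order of class means on each probeset. *Krt14* was read by 1423935_x_at, used above, by 1460347_at and by 1455573_at, of which the last ran from 6.44 to 7.08 in skin, from 8.46 to 9.74 in poorly differentiated, from 4.74 to 5.91 in mixed and from 4.47 to 5.20 in undifferentiated/spindle carcinomas. On this probeset Trp53ΔEC tumor 2 read 5.20 and did not stand out as it did at 10.55 on 1460347_at. RbΔEC; Trp53ΔEC tumor 1 read 4.73 on it, below RbΔEC; Trp53ΔEC tumors 3 and 5 (4.76 and 4.90). *Krt6a* read 6.56 or higher in every undifferentiated/spindle carcinoma on 1427700_x_at, used above, but 3.65, 3.89 and 3.84 in Trp53ΔEC tumor 1 and RbΔEC; Trp53ΔEC tumors 3 and 5 on 1422784_at. The low end of the first probeset is thus higher, and probesets whose name ends in x_at or a_at can match more than 1 transcript, so signal of *Krt6a* and *Krt6b* or of *Krt14* and *Krt16* RNA may not be fully separated. For *Krt17* the probeset 1420193_at ran from 5.71 to 5.85 in skin, from 6.60 to 7.44 in poorly differentiated and from 3.57 to 4.10 in undifferentiated/spindle carcinomas, with no overlap. Trp53ΔEC tumor 2 was the lowest of its class on this probeset, at 3.57. A probeset annotated to both *Krt17* and *Krt14* lay between 4.66 and 6.11 in all samples and was left out.

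**Figure D4:**
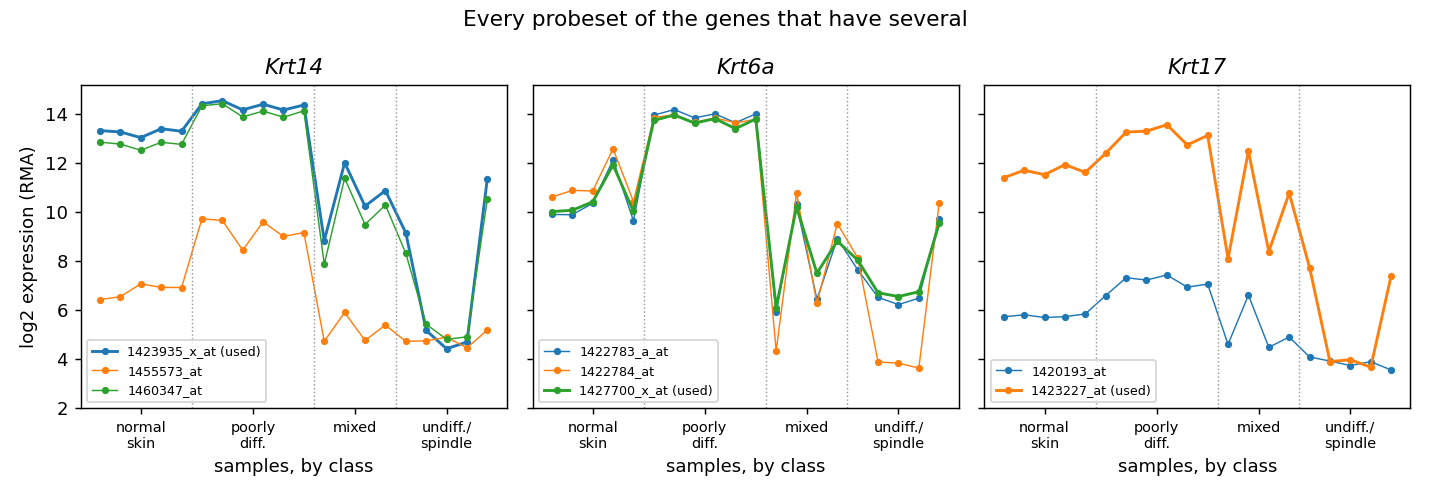
log2 expression (y axis, RMA) of every probeset of *Krt14*, *Krt6a* and *Krt17* in the 20 samples (x axis, by class), with the probeset used as a thicker line. Lines join the samples only to guide the eye. Each probeset is highest in poorly differentiated carcinomas, and 1422784_at of *Krt6a* reaches 3.65 where 1427700_x_at stays at or above 6.56 in undifferentiated/spindle carcinomas.

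The genes with the profile closest to each keratin were found by the root mean square difference of log2 values over the 20 arrays, each gene centred on its own mean, so that 0 is an identical profile. These values describe samples that share their classes and carry no test. *Krt5* lay closest to *Serpinb5* (0.63), which encodes the epithelial serpin maspin, to *Trp63* (0.64) and to *Perp* (0.77), a desmosome component. *Krt14* lay closest to *Krt5* (0.79), to the desmoplakin gene *Dsp* (0.85) and to *Krt17* (0.86), and *Krt17* to *Krt14* (0.86), *Dsp* (0.91) and *Pof1b* (0.92). The stress keratin *Krt17* was thus nearer to the basal pair than to *Krt16* (2.54) or *Krt6b* (3.72). *Krt6b* lay closest to *Sprr1b* (0.95), which encodes a cornified envelope precursor, *Stfa3* (1.38), a stefin gene, and *Krt16* (1.51). *Krt16* lay closest to *Sprr2h* (0.96), *Sprr1b* (1.10) and *Stfa3* (1.14). *Krt6a* lay closest to *Klk6* (0.74), a kallikrein protease gene, *Sfn* (0.79), which encodes stratifin, and *Endou* (0.84). Over the 15 tumors alone, *Serpinb5*, *Krt5*, *Sprr1b*, *Sprr1b* and *Pof1b* came first for *Krt5*, *Krt14*, *Krt6b*, *Krt16* and *Krt17*, and *Cers3* (0.58) for *Krt6a*.

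Keratins outside the group were counted in poorly differentiated carcinomas against skin, where 21.2% of all genes were called higher and 22% lower. Of 7 other keratins of the interfollicular epidermis, 5 were lower, none was higher and 2 were not called. *Krt77* (−7.27, adjusted p = 1.81e-05) and *Krt10* (−2.22, 0.0201) belong to suprabasal cells, *Krt15* (−5.33, 0.00014) to basal cells and the hair follicle bulge, and *Krt80* differed by −1.51 (0.00298, limma). Thus in the same tumors the basal keratin *Krt15* was lower than in skin while *Krt5* and *Krt14* were higher. Of 6 keratins of simple epithelia 1 was higher, *Krt18* by 1.92 (adjusted p = 0.0292), and 3 were lower. Of 16 keratins of the hair shaft and inner root sheath 4 were higher and 1 was lower, with *Krt27* at 2.25 (adjusted p = 0.00156), *Krt73* at 1.75 (0.000926) and *Krt32* at −1.46 (0.000397, limma). Of 5 keratins of mucosa, palm and companion layer 2 were lower and none was higher. All 13 wound keratinocyte genes measured were higher (21.2% of all genes, median 6.34), among them *S100a9* (8.67, adjusted p = 7.28e-10), *Sprr1b* (8.63, 1e-10), *Mmp13* (8.30, 3.75e-10) and *Defb3* (7.85, 1.77e-07). This list was written by name with earlier results known, and its median stands beside 0.00 for all genes.

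The proteins that anchor keratin filaments to desmosomes and hemidesmosomes, and factors known to act on keratin genes, were counted in the same way. Of 13 anchor genes 3 were higher and 3 lower in poorly differentiated carcinomas than in skin, shares near the 21.2% and 22% over all genes. In undifferentiated/spindle against poorly differentiated carcinomas, where 9.9% of all genes were called lower, 11 were lower and none was higher (median −3.47, against 0.01 for all genes), with *Dsp* at −6.59 (adjusted p = 0.000332) and *Col17a1*, the hemidesmosome collagen gene, at −6.40 (6.84e-06, limma). The anchor genes *Dsp*, *Col17a1*, *Itgb4* and *Itga6* and the transcription factor gene *Trp63* are also among the keratinocyte markers above. These counts are thus not separate from the keratinocyte marker mean. Of 16 transcription factor genes 7 were higher and 2 lower in poorly differentiated carcinomas than in skin (21.2% and 22% of all genes), with *Fosl1*, an AP-1 subunit, at 3.32 (adjusted p = 0.000129), *Tfap2c* at 1.18 (1.39e-05) and *Trp63* at 0.79 (0.000643, limma). In undifferentiated/spindle against poorly differentiated carcinomas 9 of the 16 were lower (9.9% of all genes) and none was higher. *Trp63* was at −6.91 (adjusted p = 4.82e-06) and *Tfap2c* at −5.04 (6.11e-06), while *Fosl1* was not called (0.80, 0.165, limma). Ligands of the EGF receptor are known inducers of keratins 6 and 16 in cultured human keratinocytes. Of the receptor and its relatives and skin ligands, 8 genes in all, 4 were higher and 2 lower in poorly differentiated carcinomas than in skin (21.2% and 22% of all genes). Among the higher were the ligands *Hbegf* at 4.34 (adjusted p = 4.33e-07) and *Epgn* at 3.69 (0.00134, limma). The 2 lower were the ligand *Btc* at −2.28 (adjusted p = 0.00124) and *Egfr* itself at −1.43 (1.47e-05, limma).

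In undifferentiated/spindle against poorly differentiated carcinomas 5 of the 7 other interfollicular keratins and 11 of the 13 wound keratinocyte genes were lower (9.9% of all genes) and none was higher. Of 10 other intermediate filament genes 4 were higher and none lower, where 12.7% of all genes were called higher. They were the neurofilament genes *Nefl* (4.94, adjusted p = 0.00044) and *Nefm* (4.52, 0.00151), the vimentin gene *Vim* (2.09, 0.000818) and the nestin gene *Nes* (1.23, 0.000228, limma). *Krt8*, a keratin of simple epithelia named here after its value was seen, was higher in mixed than in poorly differentiated carcinomas (3.36, adjusted p = 0.0257), where all 6 basal and stress keratins were lower.

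**Figure D5:**
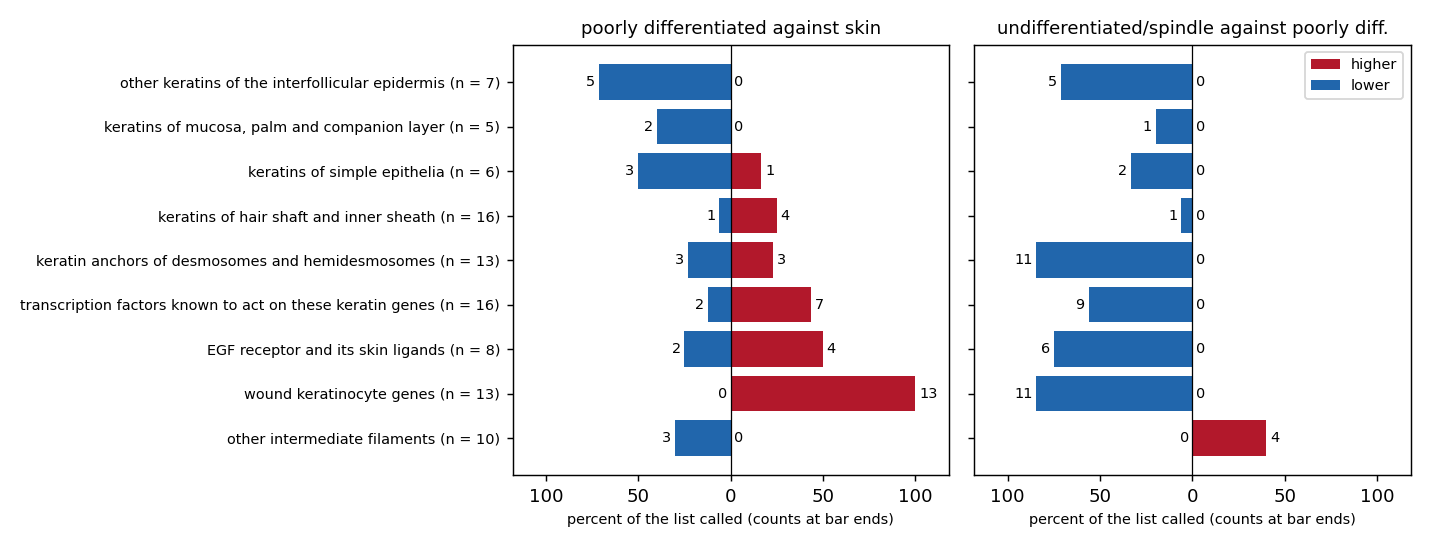
Percent of each gene list called higher (red, to the right) or lower (blue, to the left) by limma at an adjusted p under 0.05, with the number of genes at the bar ends, in poorly differentiated carcinomas against skin and in undifferentiated/spindle against poorly differentiated carcinomas. All 13 wound keratinocyte genes are higher in the first comparison and 11 are lower in the second, and 11 of 13 anchor genes are lower in the second.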

How the data were processed

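Total RNA from a fibrous tissue kit had been biotin-labelled by the authors after a Bioanalyzer check and hybridized to Affymetrix MOE430 2.0 arrays. The authors deposited log2 values from RMA (background correction, normalization and summary of probes into probesets). The RMA version was not given in the sources used here. RMA normalizes the probes of all arrays to 1 distribution, so values are relative within the series, and the number of arrays limits the precision.

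Of 45101 probesets, 64 array controls were left out. In the platform annotation 34945 probesets had 1 symbol, 932 had several and 9160 had none, with symbols updated through RefSeq (GRCm38.p6). The probeset with the highest mean over the 20 arrays stood for each of 18193 genes. Groups were taken from the labelled title and histological subtype. The samples of each comparison were fitted on their own with limma (version 3.58.1, R 4.3.3; lmFit, then eBayes). Tests were two-sided, p-values were adjusted by Benjamini-Hochberg over all genes, and a gene below 0.05 was called. The procedure was tested on simulated data in which both groups of a gene had the same spread. That test does not cover groups of unequal spread, such as the keratins in the tumor classes. Profiles and figures used Python 3.11.15, numpy 2.4.6, pandas 2.3.3 and matplotlib 3.10.9.

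The keratins and the 9 gene lists were chosen with earlier results of these data known. From each list at most 4 genes were named, those past the test with the largest difference by grade or between tumors and skin. *Krt8* was named outside this rule. Alternatives were another choice of probeset, the methods' t-test, centring, quantile normalization, a filter on dim genes, all probesets, 1 fit over all samples, covariates, a block on the replicate number and leaving out each sample. *Krt9*, *Krt85*, *Dsg3*, *Areg* and *S100a7a* of the lists were not analysed here.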

Additional observations from a re-analysis of the deposited data

Results flagged for a closer look

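A sample was set apart where its gap to the nearest sample of its group, divided by the range of the group, exceeded Dixon's 95% critical value. Over 36 groups of the 6 keratins this happened 5 times, and chance alone marks about 1 in 20 groups. *Krt6b* in undifferentiated/spindle carcinomas was highest in Trp53ΔEC tumor 2, at 11.82, with the nearest tumor at 5.51. *Krt6a* in normal skin was highest in sample 4, at 11.93, with the nearest at 10.43, and *Krt16* was highest in the same sample, at 8.78, with the nearest at 6.81. *Krt6b* in poorly differentiated carcinomas was lowest in RbΔEC; Trp53ΔEC tumor 7, at 13.57, with the nearest at 14.33. *Krt14* in Trp53ΔEC tumors was lowest in tumor 1, a spindle cell carcinoma, at 4.71, with the nearest at 10.25.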

How the results depend on the processing

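All 6 keratins were called lower in undifferentiated/spindle than in poorly differentiated carcinomas under all 10 alternatives and without each of the 11 samples, and 6 were called higher in poorly differentiated carcinomas than in skin under each except 1 fit over all 20 samples, which called 3. For tumors against skin the methods' t-test called 2 and 1 fit over all samples 5, against 0. For mixed against poorly differentiated carcinomas the methods' t-test called 0 against 6. For mixed against undifferentiated/spindle carcinomas it called 0, all probesets tested 0, 1 fit over all samples 2, and leaving out single samples 0 to 2, against 1. The genotype comparison of the class difference called 0 to 1 without single samples. The shares of all genes called under these alternatives are not given here, and the cause of these changes was not tested.

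Directions turned mainly where no keratin was called. Between genotypes *Krt14* was at 0.80 on 1455573_at, *Krt6a* at −0.28 on 1422784_at and *Krt17* at 0.27 on 1420193_at. With the class as a covariate *Krt6a*, *Krt6b* and *Krt16* were at −0.93, −1.86 and −1.30. Within poorly differentiated carcinomas *Krt5*, *Krt14*, *Krt6b*, *Krt16* and *Krt17* were at 0.20, 0.12, −0.23, −0.15 and 0.20. The replicate numbers are only names, since same-numbered tumors correlated between −0.48 and 0.64 and 2 of 7 correlated best with their own number. With a replicate block *Krt6a*, *Krt6b* and *Krt16* were at −0.18, −0.67 and −0.26, and the block called 0 keratins between genotypes and 0 between tumors and skin. Without single samples the genotype differences ran from −1.57 to 0.070 for *Krt5*, −1.53 to 0.42 for *Krt14*, −0.23 to 0.95 for *Krt6a*, −0.79 to 0.82 for *Krt6b*, −0.35 to 1.18 for *Krt16* and −1.29 to 0.54 for *Krt17*. In mixed against undifferentiated/spindle carcinomas they ran from −0.044 to 1.33 for *Krt6a*, −1.32 to 1.40 for *Krt6b* and −0.36 to 1.13 for *Krt16*, and for *Krt6a* in tumors against skin from −0.59 to 0.035. The genotype difference of the class difference ran from −3.39 to 1.33 for *Krt5*, −5.24 to 1.43 for *Krt14*, −2.63 to 0.17 for *Krt6a*, −6.45 to 0.16 for *Krt6b*, −3.98 to 0.94 for *Krt16* and −2.40 to 1.33 for *Krt17*.

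Of 953 results for single keratins under an alternative, 859 kept their direction and their side of the threshold, 63 turned, 20 lost the call and 11 gained it. Values near the low end of the scale limit the differences of *Krt6b* in skin and of all 6 keratins in undifferentiated/spindle carcinomas.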
